A study of Mus musculus with 15 samples.

Results

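The opioid peptide precursors Penk, Pdyn and Pnoc and the opioid receptors Oprm1, Oprd1, Oprk1 and Oprl1 are 7 of the 26145 genes listed for this single-cell RNA-seq survey of the mouse prefrontal cortex (PFC), and they were found by their symbols. The survey holds 35360 retained cells from 15 droplet libraries, with 10538 cells at postnatal day 21 (P21) and 24822 at P60. All mice were male C57BL/6N. The 3 P21 libraries came from mice of 3 weeks that had no self-administration. The 12 P60 libraries came from mice of 8 to 10 weeks that had intravenous self-administration of cocaine (6 libraries) or of saline (6 libraries), with 2 libraries of each treatment taken during maintenance, 2 after 48 h and 2 after 15 days of withdrawal. The P60 saline mice are therefore not untreated animals, since they share the surgery, the apparatus and the infusions with the cocaine mice. The tissue of 2 mice was pooled for each P60 library, and no cell can be traced to 1 mouse. The methods give 4 P21 mice in pools of 2, whereas there are 3 P21 libraries, so the P21 libraries may share mice, and their spread need not be that between animals. A tissue tag reads NAc (nucleus accumbens) for every library, whereas title and source read PFC.

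Opioid peptides are cut from larger precursor proteins and act through G protein coupled receptors that lower cyclic AMP, open potassium channels and reduce transmitter release. Penk encodes the enkephalins, which act at the delta and mu receptors (Oprd1 and Oprm1), Pdyn encodes the dynorphins, which act at the kappa receptor (Oprk1), and Pnoc encodes nociceptin, the ligand of Oprl1. In the cortex these peptides are best known from interneurons. Dynorphin and the kappa receptor have been studied for their part in aversion and stress during drug withdrawal.

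Pdyn was called lower at P60 in the excitatory class and in 5 excitatory clusters, so the sequence before its transcription starts is shown. RefSeq (GRCm38.p6) lists 2 start sites, each with 250 bases before and 50 after the start, both on the minus strand, at chr2:129699889-129700188 and chr2:129698609-129698908. Capitals mark ATTGG, the reverse complement of the CCAAT box.
Pdyn start 1: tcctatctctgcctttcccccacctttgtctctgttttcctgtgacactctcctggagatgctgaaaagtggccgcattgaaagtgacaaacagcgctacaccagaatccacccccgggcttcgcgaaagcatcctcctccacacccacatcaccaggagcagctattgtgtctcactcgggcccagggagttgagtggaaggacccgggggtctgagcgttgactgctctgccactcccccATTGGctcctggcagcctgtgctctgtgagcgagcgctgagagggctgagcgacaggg
Pdyn start 2: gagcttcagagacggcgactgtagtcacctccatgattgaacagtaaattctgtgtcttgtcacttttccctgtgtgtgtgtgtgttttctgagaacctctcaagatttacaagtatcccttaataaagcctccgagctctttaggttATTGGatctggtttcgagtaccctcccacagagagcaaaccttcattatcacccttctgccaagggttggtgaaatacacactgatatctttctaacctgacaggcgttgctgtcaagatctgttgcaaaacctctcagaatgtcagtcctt
Each window holds 1 CCAAT box, a motif found on either strand in 37.4% of 32851 promoter windows of this length. The letters TGACGTCA (cyclic AMP response element, in 1.79% of windows), its shorter form CGTCA (20.8%), TGANTCA (AP-1 site, 7.81%) and the letters TATAAA of the core promoter box of that name (13.6%) are not in either window on either strand. CGTCA is contained in TGACGTCA, so a window with the full element counts for both. These matches describe letters only. Windows were also listed for Oprm1 (3), Oprd1 (1) and Oprl1 (3).

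In the annotation of the build that the counts use (NCBIM37, the same assembly as mm9), Penk lies on chromosome 4 from 4060678 to 4065966 (minus strand, 2 transcripts), Pdyn on chromosome 2 from 129512301 to 129525580 (minus strand, 3 transcripts) and Pnoc on chromosome 14 from 66019510 to 66044046 (minus strand, 1 transcript). Oprm1 lies on chromosome 10 from 3308332 to 3588035 (minus strand), Oprd1 on chromosome 4 from 131666641 to 131700401 (minus strand), Oprk1 on chromosome 1 from 5578574 to 5596212 (plus strand) and Oprl1 on chromosome 2 from 181449721 to 181455690 (plus strand). No other gene overlaps any of these genes on the same strand. Oprm1 has 35 annotated transcripts with 27 different 3′ ends and Oprl1 has 13 with 8, and the reads come from 3′ ends, so levels are compared between cell types and samples within a gene and not between genes.

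Levels are given in CPM, the unique molecular identifiers (UMIs) of a gene per 1000000 UMIs of a cell type in a library. A pooled CPM first sums all libraries of an age. Cell types are the authors' clusters as deposited, with 26 excitatory (Exc_1 to Exc_26) and 12 inhibitory (Inhib_1 to Inhib_12) clusters. The excitatory clusters at P60 had Slc17a7, a vesicular glutamate transporter, at 253 to 576 CPM and Gad1, an enzyme of GABA synthesis, at no more than 3.6 CPM, whereas Gad1 stood at 512 to 2295 CPM in the inhibitory clusters. P21 neurons carry the P60 cluster names because the authors assigned them to the P60 clusters. Libraries held 1055 to 4439 cells and 8375172 to 42892922 UMIs. The maintenance libraries were the shallowest (8375172 to 11998611 UMIs) and the 15-day libraries the deepest of the P60 set (27704573 to 42892922), so depth moved with the time point, and no 2 libraries shared more than 27 cell barcodes. No library holds both ages, so age and library preparation cannot be told apart. In these dissociated cells a lower CPM for a class may mean fewer cells that express a gene or less of it per cell. Both are given for the class calls of Pdyn and Pnoc, and shares of cells for some other results.

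**Figure D1:**
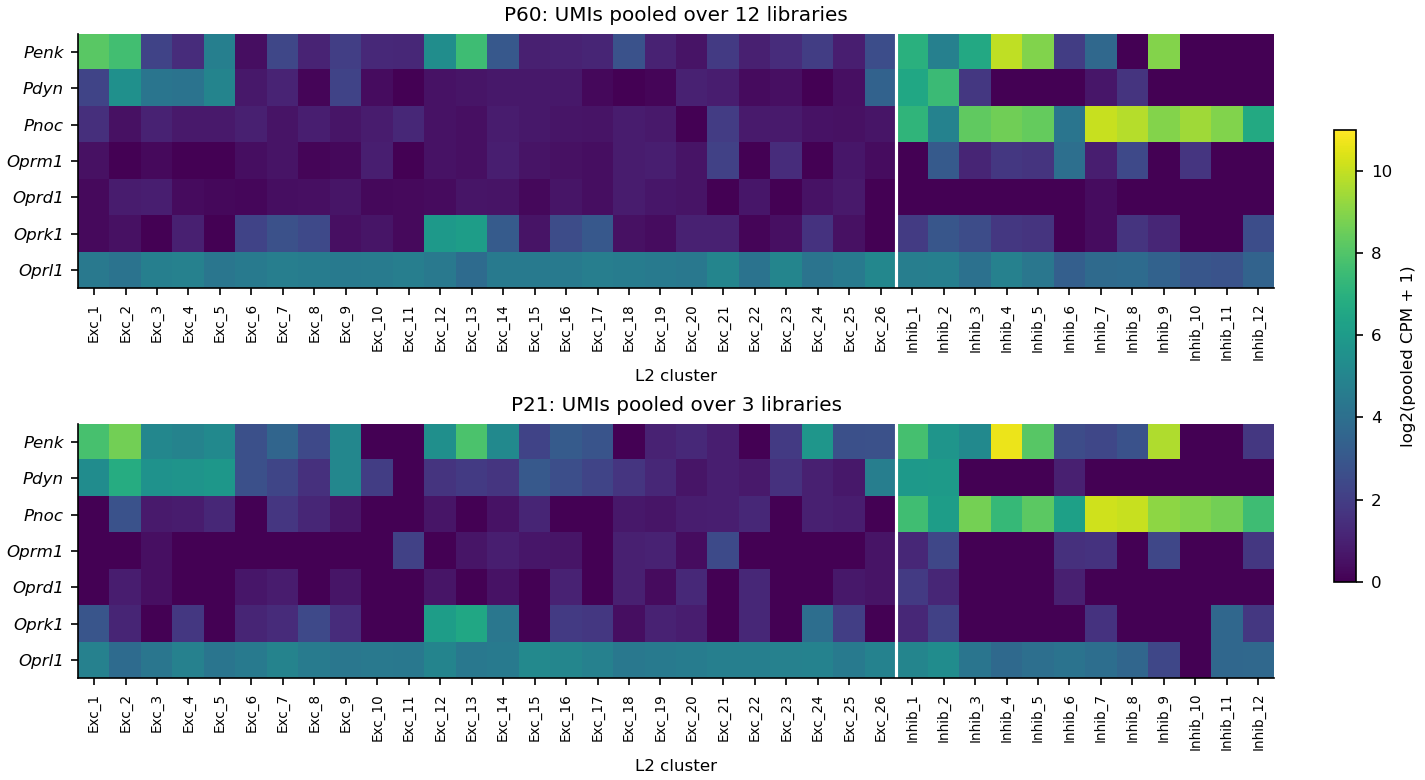
Level of the 7 genes in the 38 neuronal clusters as log2(pooled CPM + 1), at P60 (top, 12 libraries) and P21 (bottom, 3 libraries). Penk and Pdyn appear in a few excitatory and a few inhibitory clusters, Pnoc across most inhibitory clusters, Oprk1 in Exc_12 and Exc_13, and Oprl1 in nearly all clusters, whereas Oprm1 exceeds 10 CPM at P60 only in Inhib_6 (15.3 CPM) and Oprd1 stays at or below 0.871 CPM there.

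Penk was found in both neuron classes and was higher in inhibitory neurons. At P60 its pooled level was 130.1 CPM in inhibitory and 23.2 CPM in excitatory neurons, and the inhibitory level was the higher of the pair in 12 of 12 libraries. The other classes stood at 2.09 to 5.66 CPM. For shares at equal depth, cells were thinned to 2000 UMIs and cells with fewer were left out. This left out 235 of 2032 endothelial cells at P21 and 8 of 1856 in the P60 saline libraries. After thinning, Penk was seen in 12.4% of inhibitory and 3.5% of excitatory cells of the P60 saline libraries, against 0.162% of endothelial cells, which are taken here as the background. Shares of cells are given with exact (Clopper-Pearson) intervals where 1 is printed, and such intervals cover counting error only.

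The inhibitory clusters with the highest Penk levels at P60 were Inhib_4 (1001 CPM, 74 cells), Inhib_9 (503 CPM, 145 cells) and Inhib_5 (478 CPM, 66 cells). Inhib_4 and Inhib_9 had Vip, which encodes vasoactive intestinal peptide, at 19297 and 17734 CPM. Inhib_5 had Vip at 713 CPM and the cannabinoid receptor gene Cnr1 at 1299.7 CPM. In Inhib_4, 78.4% of cells held a Penk UMI, with 6.97 UMIs per such cell. Inhib_1 (Sst at 40338 CPM) and Inhib_3 followed at 125 and 99.8 CPM. The Inhib_3 value rested mostly on 1 library, since cocaine 48 h replicate 2 (library 8) gave 58 of its 135 cells and 71 of its 81 Penk UMIs. Penk is a known marker of the striatal projection neurons that also express Drd2, so the tissue tag made their markers relevant. Across the 12 inhibitory clusters at P60, Drd2 reached at most 6.76 CPM and Adora2a 7.63 CPM, and the summed level of 8 markers of striatal projection neurons was 53.4 to 186 CPM, with Inhib_3 at 136 CPM, and 91.8 to 185 CPM at P21.

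Among excitatory neurons Penk was concentrated in 3 clusters. These were Exc_1 at 294 CPM (447 cells), Exc_2 at 205 CPM (430 cells) and Exc_13 at 193 CPM (443 cells), and the next cluster, Exc_12, stood at 41.4 CPM. Exc_1 was above Exc_2 in 11 of 11 libraries with both, whereas Exc_2 was above Exc_13 in only 6 of 12, so the order of Exc_2 and Exc_13 lies within the spread between libraries. Exc_1 and Exc_2 carried the upper layer genes Cux2 (119.9 and 157 CPM) and Calb1 (312 and 262 CPM). Between 61.2% and 63.8% of the cells in each of the 3 clusters held a Penk UMI.

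Penk was lower at P60 in part of the excitatory clusters, and the size of the called differences varied from cluster to cluster. All age tests set the 6 P60 saline libraries against the 3 P21 libraries. Unless another test is named, they used edgeR's quasi-likelihood test on UMIs summed per library and cell type. The Benjamini-Hochberg adjustment ran over all genes of a fit. Pooled P60 levels include the cocaine libraries unless saline is named. A call needed more than a 1.5-fold difference together with an adjusted p under 0.05. Statements on overlap between the ages describe the same libraries that gave the test. How many other genes separate by age in this way was not counted. Over the 29 clusters that could be fitted the members gave 44 tests, of which 10 were called, all lower at P60, while 6.37% of the tests of all genes were called lower. Penk accounted for 5 of these calls in 10 tests, in Exc_2, Exc_3, Exc_4, Exc_9 and Exc_14. The filter on low counts asks for enough counts in as many libraries as the smaller group holds. A gene could thus enter through the P21 libraries alone, and a call higher at P60 was then hardly possible. How many of the 44 tests entered in this way was not counted, so the shared direction is not used as support.

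In Exc_2 Penk stood at 418, 323 and 409 CPM in the P21 libraries and at 162 to 323 CPM (median 207) in the 6 P60 saline libraries. The highest P60 library stood level with the lowest P21 library, and all others were lower. The log2 difference (P60 minus P21) was −0.80 ± 0.16 (SE), with an adjusted p of 0.000609. Unthinned, 64.1% of 251 Exc_2 cells at P21 and 61.2% of 430 at P60, cocaine cells included, held a Penk UMI. In Exc_4 the P21 libraries stood at 43.5, 26.1 and 24.6 CPM, whereas the P60 saline libraries ranged from 0 to 3.67 CPM (median 0.405, 5 UMIs in 449 cells) and did not overlap with them. The fitted difference was −4.37 ± 0.63 with an adjusted p of 2.49e-05, the largest of the called changes, and its size depends on few P60 UMIs. In Exc_3 Penk fell from 27.2, 31.1 and 43.4 CPM to 0 to 7.35 CPM (median 4.38). That difference was −3.05 ± 0.45 (adjusted p 8.86e-05), again without overlap.

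In Exc_14 Penk fell from 25.3, 42.1 and 42.1 CPM to 0 to 13.5 CPM (median 6.53), a difference of −2.11 ± 0.34 (adjusted p 0.000124). In Exc_9 it stood at 23.5, 60.8 and 41.6 CPM at P21 and at 0 to 24.4 CPM (median 2.39) at P60, and here saline maintenance replicate 1 at 24.4 CPM (5 UMIs) reached into the P21 range. The Exc_9 difference was −3.28 ± 0.70 (adjusted p 0.0102). Without that library the difference of Penk in Exc_9, P60 saline minus P21, was −4.15 (adjusted p 0.000361). DESeq2 called Penk neither in Exc_9 (−3.03, adjusted p 0.15) nor in Exc_4 (−4.62, no adjusted p given). These called clusters, other than Exc_2, were not among those with high Penk at P60. With cells thinned to the same depth, the share of cells with a Penk UMI in Exc_4 was 4.55% at P21 and 0.445% at P60, beside 0.39% and 0.162% of endothelial cells, so the P60 share in Exc_4 is close to the background. Gad1, the inhibitory marker, ranged from 1.37 to 13.2 CPM in these 5 clusters at P21, and its part in the Penk values was not tested.

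In the cluster with the highest excitatory level, Exc_1, Penk did not fall. It stood at 225, 234 and 204 CPM at P21 and at 325, 289, 252, 289.5 and 347 CPM in the 5 P60 saline libraries with enough cells. Every P60 library was above every P21 library, but the difference of 0.47 ± 0.18 was not called (adjusted p 0.0704). The contrast between Exc_1 and Exc_2 within a library moved by 1.22 on the log2(CPM + 1) scale, from −0.79 ± 0.29 (SD, n = 3) at P21 to 0.44 ± 0.32 (SD, n = 5) at P60. The groups did not overlap and the exact two-sided permutation test gave p = 0.0357, the smallest that 3 against 5 libraries can give. Adjusted over the 4 such contrasts, which were chosen after the data were seen, p was 0.114. The contrast between Exc_13 and Exc_2 moved by 0.53, with overlap (exact two-sided permutation p = 0.286, adjusted 0.381).

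Penk in Exc_13 (−0.24 ± 0.34, adjusted p 0.691), Exc_12 (−0.41 ± 0.50, adjusted p 0.642) and Inhib_9 (−0.94 ± 0.78, adjusted p 0.637) was not called. The Inhib_9 libraries spread widely, at 1085, 982 and 404 CPM at P21 and 615, 621 and 64 CPM at P60, and the ages overlapped. Over the whole excitatory class the Penk libraries were 47.1, 34 and 41 CPM at P21 and 15.3 to 58.2 CPM (median 24.1) at P60. Saline maintenance replicate 1, the shallowest library, gave the 58.2 CPM. The class difference of −0.50 ± 0.36 was not called (adjusted p 0.307), and without that library it was −0.76 (adjusted p 0.0188) and was called. In the inhibitory class the difference was −0.27 ± 0.71 (adjusted p 0.838). Its pooled levels (P21 and P60 saline, no test) differed by −0.24. With each cluster's share of inhibitory cells fixed to its mean over both ages, they differed by −0.73 (151 and 90.6 CPM).

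**Figure D2:**
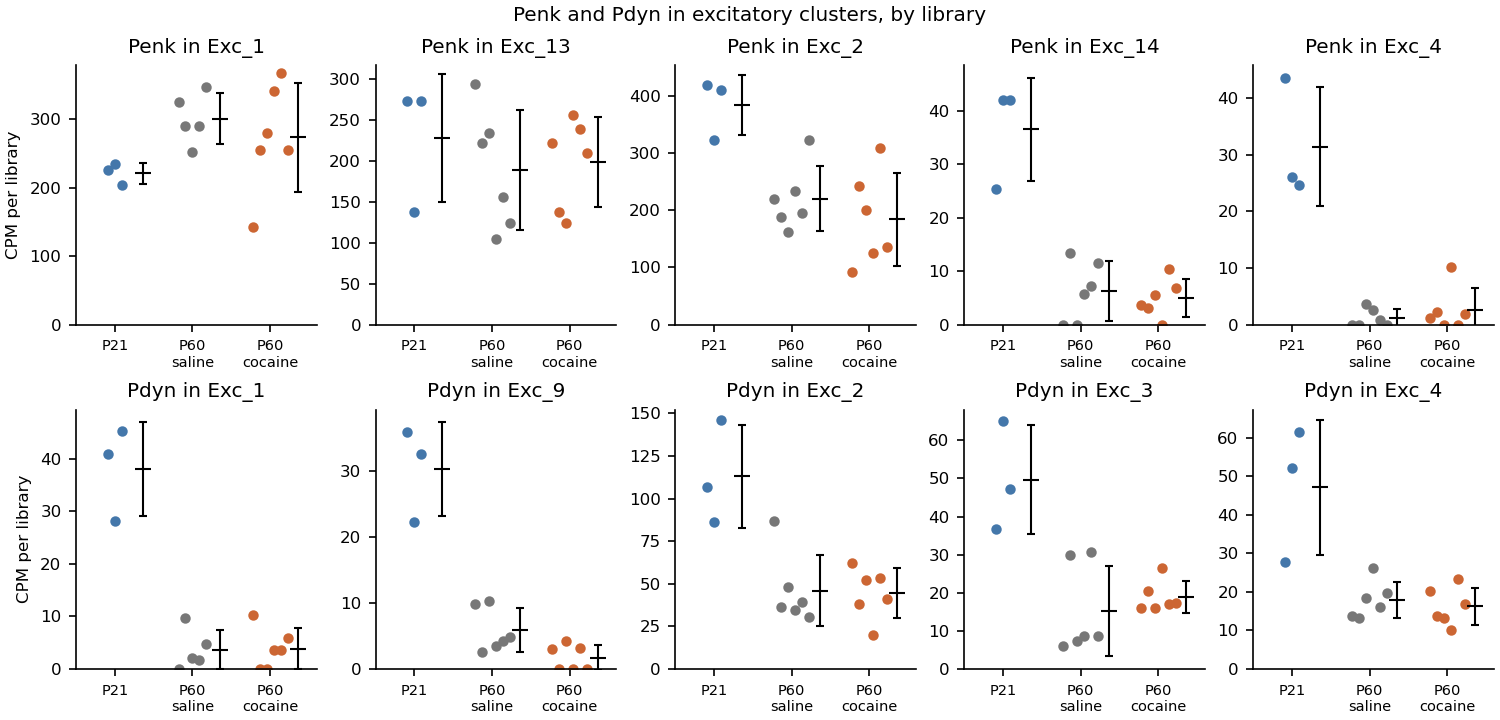
CPM of Penk (top) and Pdyn (bottom) in 5 excitatory clusters each, 1 point per library, for P21, P60 saline and P60 cocaine, with the mean and SD as bars. Penk in Exc_1 is the panel in which P60 lies above P21, and in Exc_4 the P21 libraries (24.6 to 43.5 CPM) lie above the P60 saline libraries (0 to 3.67 CPM); for Pdyn the P21 libraries are the highest in each panel except Exc_2, where saline maintenance replicate 1 (87.1 CPM) passes a P21 library (86.5 CPM).

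Pdyn was lower at P60 in excitatory neurons. The excitatory class stood at 17.1, 12.8 and 15.7 CPM in the P21 libraries and at 2.68 to 9.17 CPM (median 4.65) in the P60 saline libraries, with no overlap. The difference was −1.66 ± 0.28 on the log2 scale, or 3.16-fold lower (adjusted p 0.000861). In this class 19.3% of all 13245 genes tested were called, so a call by itself is common, and of the 5 members tested there Pdyn was the one called. The P60 cocaine libraries, which the test did not use, ranged from 2.64 to 8.71 CPM and also lay below all P21 libraries. After thinning, the share of excitatory cells with a Pdyn UMI was 2.72% at P21 (95% interval 2.32 to 3.17) and 0.999% at P60 (0.775 to 1.27), and unthinned it was 8.63% and 3.95%. Thinned endothelial cells gave 0% and 0.0541%. Excitatory cells with a Pdyn UMI held on average 1.64 UMIs at P21 and 1.38 in the P60 saline libraries. These are unthinned, at a median depth of 8372 and 12499 UMIs per cell.

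Within clusters Pdyn was called lower in 5 of 7 tests, while 6.37% of the cluster tests of all genes were called lower. Here too a gene could enter through the P21 libraries alone, so this count is not used as support. With each cluster's share of excitatory cells fixed to its mean over both ages, the class difference was −1.68, against −1.92 with the shares as they were. Here and below, values with fixed shares use pooled P21 and P60 saline levels, with no test. In Exc_1 Pdyn fell from 40.9, 28.1 and 45.3 CPM to 0 to 9.63 CPM (median 2.12, 5 libraries), a difference of −3.45 ± 0.58 (adjusted p 8.79e-05), for which DESeq2 gave no adjusted p (−3.40) and so no call. In Exc_9 it fell from 35.9, 22.2 and 32.6 CPM to 2.59 to 10.3 CPM (median 4.52), a difference of −2.50 ± 0.35 (adjusted p 2.18e-05). Neither cluster showed any overlap between the ages. Exc_3 (−1.46 ± 0.34, adjusted p 0.00773) and Exc_4 (−1.45 ± 0.28, adjusted p 0.000881) did not overlap either.

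Exc_2 was the excitatory cluster with the highest Pdyn level at both ages, at a pooled 111 CPM at P21 and 44.4 CPM at P60. Its P21 libraries stood at 107, 86.5 and 146 CPM and its P60 saline libraries at 30.7 to 87.1 CPM (median 38). Saline maintenance replicate 1 gave the 87.1 CPM (19 UMIs) and was the only P60 saline library that overlapped with P21. The difference was −1.35 ± 0.23 (adjusted p 8.56e-05). Exc_5, the next cluster, missed the threshold with −0.96 ± 0.33 (adjusted p 0.0669), and without that library it was called with −1.07 (adjusted p 0.0455).

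In inhibitory neurons Pdyn belonged to the clusters with somatostatin. At P60 Inhib_2 (Sst at 22921 CPM) had 182 CPM of Pdyn in 112 cells and Inhib_1 (Sst at 40338 CPM) had 91.7 CPM in 36 cells. The Inhib_1 level came mostly from the cocaine libraries (30 of 33 UMIs, 162 CPM in 19 cells), since the saline libraries had 3 UMIs in 17 cells (17.1 CPM), and too few libraries had the 10 cells that a test needed. The libraries differed widely. Inhib_2 stood at 28.6, 211 and 0 CPM in the 3 P60 saline libraries with enough cells, and at 372, 246 and 45.6 CPM in the 3 cocaine libraries. The P21 libraries were closer together, at 52.7, 81.8 and 58.9 CPM. The age difference in Inhib_2 was 0.41 ± 0.77 (adjusted p 0.875) and in the inhibitory class −0.97 ± 0.89 (adjusted p 0.497), so neither direction was shown there. With cluster shares fixed, the pooled inhibitory difference changed sign, from −1.02 to 1.02. The contrast of Pdyn between the inhibitory and excitatory classes within a library changed by −0.41 (exact two-sided permutation p = 0.833). Inhib_2 made up 35.4% of inhibitory cells at P21 and 7.82% in the P60 saline libraries, so this contrast moves with the makeup. Its SD in the P60 saline libraries was 2.46. It therefore cannot decide whether Pdyn moved differently in the 2 classes.

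Pnoc was a gene of inhibitory neurons, and it was the member that rose with age in that class. At P60 it had 605 CPM in inhibitory neurons and at most 1.21 CPM in any other class. Its highest levels were in Inhib_7 (1069 CPM, 392 cells, 88.5% of them with a UMI) and Inhib_8 (870.4 CPM, 48 cells), which had Npy, encoding neuropeptide Y, at 29563 and 15968 CPM. Inhib_10, Inhib_9 and Inhib_11, with Vip or Cck, stood at 698, 489.5 and 476 CPM. The lowest were Inhib_6 (18.3 CPM), where Pvalb was at 1611 CPM, and Inhib_2 (28.8 CPM).

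In the inhibitory class Pnoc stood at 325, 257 and 186 CPM in the P21 libraries and at 498 to 782 CPM (median 608) in the P60 saline libraries. The ages did not overlap, and the cocaine libraries (425 to 927 CPM) also lay above P21. The difference was 1.25 ± 0.17, or 2.38-fold higher at P60 (adjusted p 0.000144), where 14% of all 8898 genes tested in this class were called. After thinning, 27% of inhibitory cells at P21 (95% interval 24.2 to 30) and 55.2% at P60 (51 to 59.4) held a Pnoc UMI, and unthinned 39.3% and 70.7% did. Cells with a Pnoc UMI held on average 4.36 UMIs at P21 and 7.4 in the P60 saline libraries. These are unthinned, at a median depth of 6157 and 7166 UMIs per cell.

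Pnoc was tested with age in 3 of the 12 inhibitory clusters, and it was called in none of them (edgeR, 2 with an unadjusted p below 0.05). In Inhib_7 Pnoc stood at 1126, 1360.5 and 1313 CPM at P21 and at 933, 887, 1182 and 1073 CPM in the 4 P60 saline libraries, a difference of −0.32 ± 0.14 (adjusted p 0.239). Inhib_9 (−0.14 ± 0.21, adjusted p 0.78) and Inhib_2 (−1.08 ± 0.43, adjusted p 0.284) were not called either. The pooled levels of the 9 untested clusters, with the cocaine libraries included at P60, went both ways. Inhib_10 (476 CPM at P21 and 698 CPM at P60), Inhib_11 (404 and 476), Inhib_4 (162 and 387) and Inhib_5 (297 and 338) had the higher value at P60. Inhib_8 (1085 and 870.4 CPM), Inhib_3 (419.8 and 318), Inhib_1 (199 and 147), Inhib_12 (191 and 102) and Inhib_6 (76 and 18.3) had the lower value at P60. The makeup of the class differed between the ages. Inhib_7, with high Pnoc, made up 7.9% of 962 inhibitory cells at P21 and 35.7% of 563 at P60, whereas Inhib_2, with low Pnoc, made up 35.4% and 7.82%, and Inhib_6 16.8% and 3.91%. With the cluster shares fixed to their mean over both ages, the pooled Pnoc level was 485 CPM at P21 and 452 CPM in the P60 saline libraries, a log2 difference of −0.10 in place of 1.33. The contrast of the class against Inhib_7 within a library moved by 1.66 (exact two-sided permutation p = 0.0571, the smallest that 3 against 4 libraries allow, adjusted 0.114). Inhib_7 is part of that class and its share rose, so this contrast moves with the makeup by itself. Its p therefore gives no separate support. Whether the shares differ because of the tissue, the dissociation or the assignment of P21 cells was not tested.

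**Figure D3:**
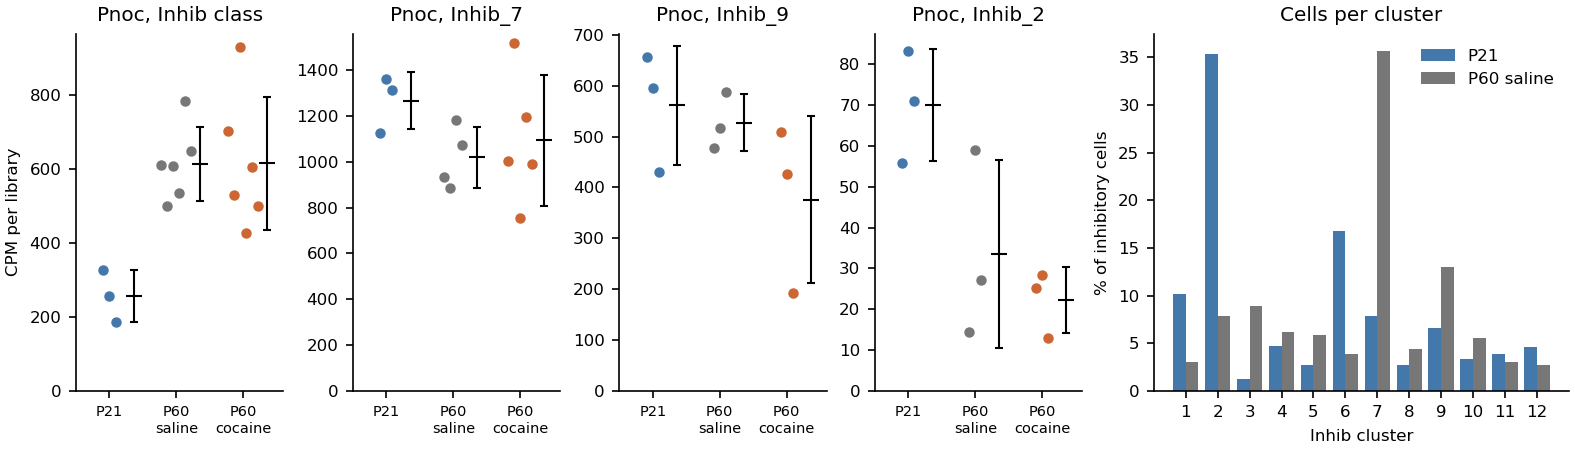
CPM of Pnoc per library in the inhibitory class and in Inhib_7, Inhib_9 and Inhib_2, with mean and SD, and the share of inhibitory cells in each cluster at P21 and in the P60 saline libraries (bars from 0%). In the class the P21 libraries (186 to 325 CPM) lie below the P60 saline libraries (498 to 782 CPM), in the single clusters they do not, and Inhib_7 takes 7.9% of the cells at P21 and 35.7% at P60.

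Oprk1 was concentrated in Exc_13 and Exc_12. The kappa receptor gene stood at 68.4 CPM in Exc_13 (379 UMIs in 443 cells) and 61.2 CPM in Exc_12 (519 UMIs in 805 cells) at P60, and the next cluster, Exc_14, had 7.95 CPM. Exc_12 was above Exc_14 in 12 of 12 libraries, whereas Exc_13 was above Exc_12 in 7 of 12, so the first pair is not separated. The share of cells with a UMI was 42.9% in Exc_13 and 38% in Exc_12. The inhibitory class had 2.02 CPM, and the excitatory class was above it in 12 of 12 libraries.

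The 2 clusters with the most Oprk1 were the same at P21, with Exc_13 at 75.4, 119.6 and 94.2 CPM and Exc_12 at 47.1, 74 and 85.3 CPM. Exc_14 (19.7 CPM pooled, 43 UMIs) and Exc_24 (14.8 CPM, 31 UMIs) followed at P21. In the P60 saline libraries Exc_12 ranged from 37.8 to 93.5 CPM (median 69.6). The age differences were 0.05 ± 0.27 in Exc_13 (adjusted p 0.934) and 0.07 ± 0.23 in Exc_12 (adjusted p 0.881), and the ages overlapped in both. Exc_14, with −1.12 ± 0.50, was not called (adjusted p 0.122). It was called without saline maintenance replicate 2 (−1.48, adjusted p 0.0257), with all P60 libraries in place of the saline libraries (−1.23, adjusted p 0.0243) and without the filter on low counts (−1.08, adjusted p 0.0283). Without that filter edgeR also called Oprk1 lower at P60 in Exc_24 (−2.30, adjusted p 0.00125), Exc_25 (−2.62, adjusted p 0.00736) and Exc_1 (−4.43, adjusted p 0.0155), on few UMIs. In the excitatory class the difference was −0.00 ± 0.44 (adjusted p 0.999).

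Exc_13 expressed both a peptide precursor and a receptor. Of its 443 cells at P60, 272 held a Penk UMI, 190 an Oprk1 UMI and 127 both, so 66.8% of the cells with Oprk1 also had Penk against 61.4% of all cells of the cluster. In Exc_12 the corresponding shares were 19.9% and 19.4%. In Exc_2, 84 cells had both Penk and Pdyn, and 63.2% of the cells with Pdyn had Penk against 61.2% of all its cells. The paired shares lie close to each other in these 3 clusters at P60. They lay further apart in Exc_14, where 20.3% of the 74 cells with Oprk1 had Penk against 7.87% of all 750 cells, and in Exc_24 at P21, where 10 of the 17 cells with Oprk1 had Penk (58.8%, against 11.2% of all cells), and no test was made. In inhibitory neurons at P60, 220 cells had Penk and 45 had Pdyn, and 2 had both, so 4.44% of the cells with Pdyn had Penk against 18.5% of all inhibitory cells. At P21 it was 9 of 70 cells (12.9%, against 15.9% of all), and at P60 the clusters with the most Penk were not those with the most Pdyn. In Inhib_9, 48 of the 60 cells with Penk also had Pnoc (80%), beside 78.6% of all cells of that cluster. In Inhib_7 it was 8 of 18 (44.4%, against 88.5% of all cells), and in Inhib_3 2 of 38 (5.26%, against 35.6%), a cluster in which Penk came mostly from 1 library. A cell without a UMI may still express a gene, because counts per cell are low.

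Oprl1, the nociceptin receptor gene, was spread over neurons and was highest in oligodendrocyte precursor cells (OPC). At P60 it had 61.6 CPM in OPC (157 UMIs in 767 cells), 22.7 CPM in excitatory neurons, 15 CPM in inhibitory neurons and 3.04 CPM in endothelial cells. OPC, which had the precursor genes Pdgfra at 753 CPM and Cspg4 at 263 CPM, averaged 57.5 ± 24.9 CPM (SD, n = 11 libraries) with a range of 11.4 to 98.4 CPM. They lay above the excitatory class in 9 of 11 libraries. After thinning, 11.9% of OPC held an Oprl1 UMI (95% interval 9.66 to 14.4, unthinned 17.9%, median depth 3073 UMIs per cell), against 0.591% of endothelial cells (median 3870.0 UMIs). At P21 only 41 OPC were retained, with 4 Oprl1 UMIs, and no age test could be made for them.

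Among the neuronal clusters Oprl1 reached 33.1 CPM in Exc_26, 31.3 in Exc_23 and 31.2 in Exc_21, a flat order compared with that of Oprk1. In the excitatory class the libraries stood at 22.1, 25.5 and 24.4 CPM at P21 and at 17.2 to 24.6 CPM (median 20.8) at P60, and the difference of −0.09 ± 0.10 was not called (adjusted p 0.511). In 21 clusters edgeR made no call (2 had an unadjusted p below 0.05), and differences ran from −0.86 to 0.36. Without P21 replicate 1, Oprl1 in Exc_15 was called (−1.23, adjusted p 0.0301). In the inhibitory class Oprl1 stood at 27.9, 23.5 and 23.7 CPM at P21 and at 10.8 to 30.9 CPM (median 14.8) at P60. The ages overlapped through saline maintenance replicate 2, at 30.9 CPM. The difference of −0.74 ± 0.25 passed narrowly (adjusted p 0.0485), and it was no longer called when any 1 library other than that one was left out (adjusted p up to 0.16) or with DESeq2 (adjusted p 0.177). With cluster shares fixed the pooled difference shrank from −0.78 to −0.26.

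**Figure D4:**
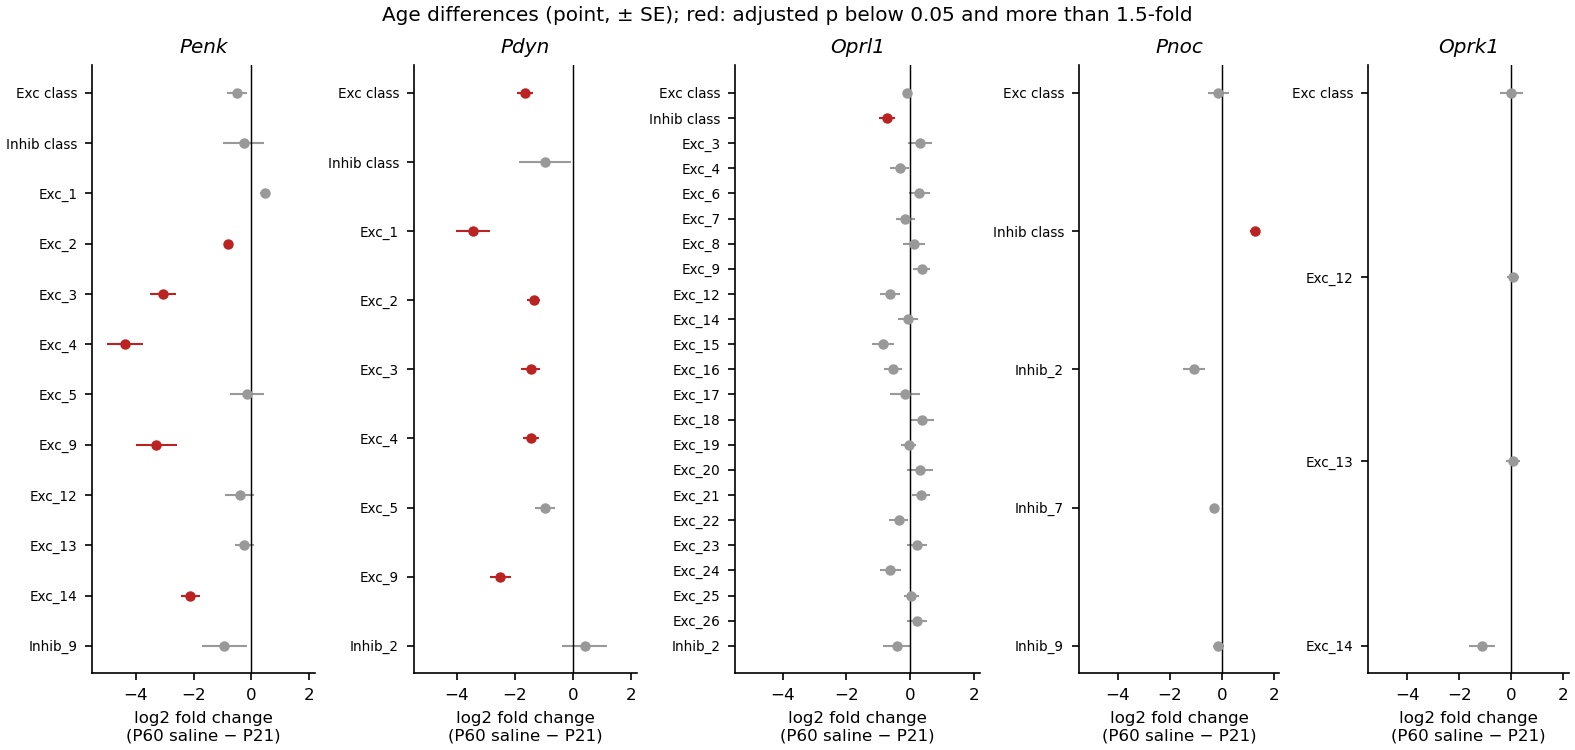
Log2 difference (P60 saline minus P21) with its standard error for each gene and cell type tested by edgeR, with calls in red. All 10 called clusters are Penk or Pdyn in excitatory clusters and lie below 0, and the class value for Pnoc in inhibitory neurons (1.25) is the one call above 0.

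Oprm1 and Oprd1 were near the limit of detection. The mu receptor gene had 136 UMIs in 131 of 24822 cells at P60 and 42 UMIs in 39 of 10538 cells at P21. Its level was higher in inhibitory (2.33 CPM, 22 UMIs) than in excitatory neurons (0.56 CPM, 106 UMIs) at P60, and likewise at P21 (2.55 CPM, 16 UMIs, and 0.486 CPM, 26 UMIs). At P60 the cluster values were highest in Inhib_6 (15.3 CPM, 5 UMIs), Inhib_2 (7.68 CPM, 8 UMIs) and, among excitatory clusters, Exc_21 (3.32 CPM, 20 UMIs), where the layer 5 gene Etv1 was at 696 CPM. At P21 they were 1.92 CPM in Inhib_6 (2 UMIs), 4.14 CPM in Inhib_2 (10 UMIs) and 4.52 CPM in Exc_21 (10 UMIs), so the order rests on few UMIs and was not the same at both ages. The delta receptor gene had 77 UMIs in 77 cells at P60 and 33 in 33 cells at P21. Of these UMIs 76 and 27 were in excitatory neurons, and 1 and 6 in inhibitory neurons. At P60 the excitatory class had a pooled 0.401 CPM of Oprd1 and the inhibitory class 0.106 CPM, and at P21 they had 0.504 and 0.955 CPM, where the inhibitory value rests on those 6 UMIs. No cluster passed 0.871 CPM of Oprd1 at P60. Neither gene had enough UMIs for an age test in any class or cluster, so a change with age was not detectable at this depth.

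The comparison of cocaine with saline used the 12 P60 libraries in a single model of 6 group means, with a contrast at each time point. None of the members was called in a class (0 of 32 tests, 3 with an unadjusted p below 0.05), where 0.131% of all tests were called. None was called in a cluster either (0 of 99 tests, 12 with an unadjusted p below 0.05), where 0.539% were called. DESeq2 also called none. Among all genes, the class fits (edgeR) had an unadjusted p below 0.05 for between 154 of 5209 (microglia, 48 h) and 903 of 13171 (excitatory, 15 days). The cluster fits had it for between 243 of 8123 (Exc_26, 15 days) and 362 of 3974 (Inhib_2, 15 days). The members' shares lie above these ranges but rest on few tests that share libraries. For the mean over the 3 time points no member was called in the excitatory and inhibitory classes (0 of 10 tests, 1 with an unadjusted p below 0.05) and the share of all genes called was 0%. In the clusters, where this mean was added after the data were seen, none was called either (0 of 23 tests, where 0.0383% of all tests were called), but 7 had an unadjusted p below 0.05 (edgeR), 4 of them for Oprl1, 2 for Penk and 1 for Oprk1. Over all genes, the cluster fits of this mean had such a p for between 370 of 7114 genes (Exc_23) and 867 of 7911 genes (Exc_10). That mean was −0.20 for Penk in excitatory neurons (adjusted p 0.878), −0.08 for Pdyn in excitatory neurons (adjusted p 0.956) and 0.01 for Pnoc in inhibitory neurons (adjusted p 1). With single libraries left out, Penk in Inhib_9 at 15 days (3.11 higher without saline 15-day replicate 1, adjusted p 5.28e-08) and Pnoc in Inhib_7 at 48 h (0.74 higher without cocaine 48 h replicate 2, adjusted p 0.0477) were called, and without the filter on low counts Penk in Exc_12 at 48 h was (1.94 higher, adjusted p 0.0207). Leaving out 1 library at a time point leaves 1 library in that group, which is assumed to vary like the other groups, so those p-values rest on no replicate of that group.

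Oprk1 in Exc_13 was looked at further after its values were seen. During maintenance the saline libraries stood at 156 and 139 CPM and the cocaine libraries at 64 and 75.3 CPM. After 48 h they were 97.4 and 87.7 CPM with saline and 45 and 46.1 CPM with cocaine, and after 15 days 60.7 and 64.2 CPM with saline and 55.6 and 45.8 CPM with cocaine. Both cocaine libraries lay below both saline libraries at every time point. The gene and cluster were picked with these values known, and how many other genes of Exc_13 separate in this way was not counted. The differences were −1.10 ± 0.27, −1.02 ± 0.38 and −0.29 ± 0.25 in that order, and with adjusted p of 0.746, 0.972 and 1 over the genes of the cluster (edgeR) none was called. When p was adjusted over all clusters and time points together, the maintenance difference was called (adjusted p 0.0378), as were 0.413% of all tests. That share pools the time points, which differed. Within Exc_13, 0 of 5225 genes were called during maintenance and 80 at 15 days, so the pooled share is not that of maintenance tests. The mean over the 3 time points, added at the cluster level after the data were seen, was −0.80 ± 0.18 (adjusted p 0.0668). It was called without saline 15-day replicate 2 (−0.80, adjusted p 0.0148) and without the filter on low counts (−0.80, adjusted p 0.0328), whereas DESeq2 did not call it (adjusted p 1). A test of whether the 3 contrasts differ gave an unadjusted p of 0.0744 (edgeR). The saline level itself was lower at 15 days than during maintenance. Depth rose over the same time points, as did the time since self-administration began, and the part of either was not tested. In Exc_12, the other cluster with Oprk1, the saline libraries stood at 93.5 and 89.2 CPM during maintenance, 73.1 and 65.9 CPM after 48 h and 66 and 37.8 CPM after 15 days. The cocaine libraries stood at 87.4 and 63.9, 71.7 and 47.8, and 39.7 and 51.9 CPM in the same order. Both cocaine libraries lay below both saline libraries during maintenance, and the groups overlapped at the other time points. The differences were −0.37 ± 0.28, −0.22 ± 0.28 and −0.20 ± 0.25, with a mean of −0.26 ± 0.15 (adjusted p 0.783), and whether the clusters differ was not tested.

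**Figure D5:**
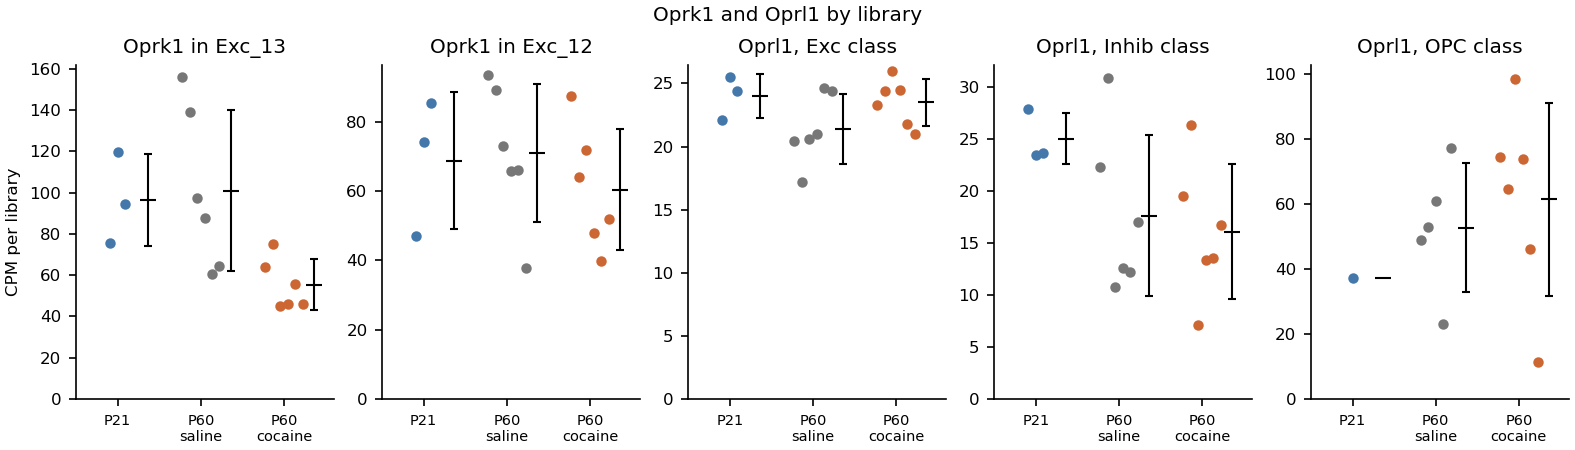
CPM per library of Oprk1 in Exc_13 and Exc_12 and of Oprl1 in excitatory neurons, inhibitory neurons and OPC, for P21, P60 saline and P60 cocaine. For Oprk1 in Exc_13 the cocaine libraries range from 45 to 75.3 CPM and the saline libraries from 60.7 to 156 CPM. These ranges hold all time points and overlap, and the values at each time point are given in the text.

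Penk in Exc_5 was the other member called when p was adjusted over all clusters and time points together (adjusted p 0.0328). Its maintenance libraries stood at 97.4 and 24.3 CPM with saline and at 6.26 and 18.3 CPM with cocaine, a difference of −2.27 ± 0.56 (adjusted p 0.237 within the cluster). The value rested on saline maintenance replicate 1, and without that library it was −1.19 (adjusted p 0.747), whereas without saline maintenance replicate 2 it was −3.12 (adjusted p 0.000435). Both values set 1 saline library against 2 cocaine libraries, with the spread taken from the other groups, and the second rests on the library at 97.4 CPM alone. After 48 h and 15 days the cocaine libraries (7.2, 16.2, 31.5 and 32.6 CPM) lay near the saline libraries (17.4, 7.86, 36.7 and 33.6 CPM). Oprl1 in excitatory neurons had a mean difference of 0.15 ± 0.07 over the time points (adjusted p 0.585).

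Beside the members, a set of 38 other genes of opioid peptide processing, breakdown, receptor coupling and desensitisation was examined. In excitatory neurons 35 of them were tested with age. At P60, 5 were higher (14.3%, against 8.18% of all genes) and 3 lower (8.57%, against 11.1%), and the median difference was −0.09 against −0.00 for all genes. The peptidase gene Ace (1.99 ± 0.34), the scavenging receptor gene Cxcr7, now called Ackr3 (1.32 ± 0.37), the G protein regulator Rgs14 (1.14 ± 0.16), the prohormone convertase Pcsk1 (0.78 ± 0.22) and Wls (0.64 ± 0.11), whose product binds the mu receptor, were higher. Rtp4, which encodes a chaperone of opioid receptors (−1.58 ± 0.28), the opioid precursor Pomc (−0.79 ± 0.14) and the G protein subunit Gnaz (−0.64 ± 0.10) were lower, with adjusted p of at most 0.0129 for all 8. Ace (1.17 ± 0.32) and Cxcr7 (1.40 ± 0.32) were also called higher in endothelial cells. Ace, Cxcr7 and Rtp4 were tested in no neuronal cluster, and the part of RNA from other cell types in their excitatory values was not tested.

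In inhibitory neurons 27 genes of the set were tested. The convertase gene Pcsk2 was higher (0.78 ± 0.21), which is 3.7% of the set against 5.73% of all genes. Gnaz (−0.92 ± 0.16) and Rgs4 (−0.90 ± 0.23) were lower, which is 7.41% against 8.29%. None of the set was called in the inhibitory clusters with an age test, Inhib_2 (22 genes tested), Inhib_7 (17) and Inhib_9 (5). The makeup of the inhibitory class differed between the ages, and its part in these class differences was not tested. Over the clusters 77 of 612 tests of the set were called (12.6%), against 10.6% of the tests of all genes, so the set was called about as often as other genes. Gnaz was lower in 17 of 27 clusters (−1.07 to −0.59), and Rgs4, which speeds the turning off of G proteins, was lower in 12 of 28. Rgs14 was higher in 11 of 23 clusters (0.73 to 2.44) and Scg5, which assists Pcsk2, in 9 of 29 (0.59 to 0.79). Kcnj9, a subunit of the potassium channels that opioid receptors open, was higher in 2 of 27. The processing gene Cpe was lower in 4 of 29 clusters (−0.77 to −0.61), and also in astrocytes (−1.50) and endothelial cells (−1.71). Arrb2 was lower in 5 of 20 clusters and Rgs19 in 3 of 22, whereas Wls was higher in 3 of 16. Each other gene of the set was called in at most 2 clusters. At single time points of cocaine edgeR called none of the set, in 460 class tests (25 with an unadjusted p below 0.05, 0 called by DESeq2) or in 1506 cluster tests (82 with an unadjusted p below 0.05, 0 called by DESeq2). For the mean over the 3 time points 1 of 339 cluster tests of the set was called (0.295%, against 0.0383% of the tests of all genes). This was Rgs4 in Exc_12, higher with cocaine by 0.73 ± 0.16 (adjusted p 0.0145). DESeq2 did not call it (0.75, adjusted p 1), and it was not called without cocaine maintenance replicate 1 (adjusted p 0.102), saline maintenance replicate 2 (0.0831), saline 48 h replicate 1 (0.126) or cocaine 48 h replicate 2 (0.0656).

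Across the 95 clusters of at least 20 cells at P60, glial clusters included, the members did not follow each other closely. The highest Pearson correlation of log2(CPM + 1) between 2 members was 0.42, for Pnoc and Oprm1. For the ligand and receptor pairs it was 0.09 for Pdyn and Oprk1, 0.15 for Pnoc and Oprl1, 0.23 for Penk and Oprm1 and 0.15 for Penk and Oprd1. Clusters share libraries and depth, so these values are descriptions. Among 14288 other genes the patterns most like that of Penk were Npy2r (0.60), Oxtr (0.58) and Crh (0.56), and those most like Pdyn were C030019I05Rik (0.58), Oxtr (0.57) and Myh4 (0.55). Pnoc followed Gad2 (0.92), Gm14204 (0.92) and Dlx5 (0.91). Oprk1 was nearest to Osr1 (0.65), Rgs13 (0.58) and Galnt14 (0.57), and Oprl1 to Tmem179 (0.85), Prrg3 (0.84) and Nsg1 (0.84).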

How the data were processed

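Per the labels and methods, the authors captured dissociated cells in droplets, aligned 3′ reads to mm9 with Cell Ranger (methods and processing notes differ on its version) and clustered with Seurat (2.1.0). The deposited matrices hold raw UMI counts for 1215 to 5079 barcodes per library. The deposited annotation gives library, class, cluster, UMI counts and mitochondrial fraction of the cells the authors retained after filters on detected genes, mitochondrial load and double droplets, so no doublet caller was run.

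UMI counts were summed per library and cell type without 13 mitochondrial and 143 ribosomal protein genes, which left 25989 genes. A type needed 10 cells in a library and 2 libraries in a group. The main test was edgeR 4.0.16 (R 4.3.3; filterByExpr, TMM, robust quasi-likelihood), with DESeq2 1.42.0, other scaling, no filter on low counts, 30 cells, all P60 libraries and leaving out each library as alternatives. Scripts were tested on simulated data. Exact permutation tests, fixed after the data were seen, used scipy 1.17.1. Nothing says that libraries of a group come from separate cohorts, and the P21 libraries may share mice, so p-values measure the spread between libraries. For 492 cells the authors' class and cluster name differ, and the cluster name was used. The members, the set of 38 genes and the marker genes were chosen with earlier results of these data known, and all members are named. The genes most like Oprm1 across clusters are not reported here.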

Additional observations from a re-analysis of the deposited data

Results flagged for a closer look

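In 46 groups of 4 to 6 P60 libraries of 1 treatment, 7 had 1 library far from the others by Dixon's test. That test flags about 1 of 20 groups of normal values from 1 population. These groups mix time points and hold low counts, so that rate need not apply to them. Saline maintenance replicate 1, the shallowest library (8375172 UMIs), was the highest of the 6 P60 saline libraries in 4 of the 7 flagged groups. There Penk stood at 416 CPM in inhibitory neurons (56 UMIs, others 32 to 161 CPM), at 97.4 CPM in Exc_5 (25 UMIs, others 7.86 to 36.7) and at 24.4 CPM in Exc_9 (5 UMIs, others 0 to 5.18), and Pdyn at 87.1 CPM in Exc_2 (19 UMIs, others 30.7 to 48.1). The part of its depth in these values was not tested.

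Among the P60 cocaine libraries, Penk in Exc_4 was 10.1 CPM in cocaine 48 h replicate 2 (5 UMIs, others 0 to 2.29) and Penk in Exc_9 was 6.41 CPM in cocaine 15-day replicate 1 (6 UMIs, others 0 to 2.08). Pnoc in excitatory neurons was lowest in cocaine maintenance replicate 1, at 0.396 CPM (3 UMIs, others 0.72 to 0.774).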

How the results depend on the processing

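Of the 13 called results for the members, 9 were called under every edgeR and DESeq2 alternative and none changed direction in a test. Pdyn in excitatory neurons stayed between −1.82 and −1.50 and Pnoc in inhibitory neurons between 1.07 and 1.47, but with the clusters' shares fixed Pnoc in Inhib was −0.10. Oprl1 in inhibitory neurons was called under 5 of 17 alternatives (adjusted p 0.0135 to 0.177). Pdyn in Exc_1 (−3.40, no adjusted p) and Penk in Exc_4 (−4.62, no adjusted p) and in Exc_9 (−3.03, adjusted p 0.15) were not called by DESeq2. Of 53 uncalled results that were followed in the same way (the members in both neuron classes and in a few clusters), 28 changed direction and 5 were called under some alternative. Uncalled cluster results outside these also gained calls, among them Oprk1 in Exc_14 and Oprl1 in Exc_15. Penk in Exc_24, tested under 9 alternatives only, was called lower at P60 in each (−5.00 to −3.81).

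Without a fold threshold the age class calls over all genes rose from 6220 to 9973, and with at least 30 cells the age cluster calls fell from 19133 to 12644. Without the filter on low counts the members had 23 age cluster calls in place of 10. For cocaine, class calls over all genes (215) became 986 without the filter and 34 to 903 when 1 library was left out, and cluster calls (2438) became 288 with DESeq2 and 464 to 5105 when 1 library was left out, with saline 15-day replicate 2 giving the highest counts. Members had 2 cocaine cluster calls when adjusted over all clusters, 1 without the filter and 0 to 1 when 1 library was left out. For the mean over all times the calls over all genes (0) became 5 with DESeq2, 72 without the filter and 0 to 87 when 1 library was left out. No paired analysis was possible because replicate numbers follow the order of the samples and pair no libraries. Few UMIs limit Oprm1 and Oprd1 in all comparisons.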
